A study of Mus musculus with 16 samples.

Results

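The collagen chain genes are the genes whose symbol is Col, a number, the letter a and a number. Of the 22180 genes measured by probe sets with exactly 1 gene symbol, 44 carried such a symbol, and all 44 were tested. They were sorted by the kind of assembly their chains form into 11 fibrillar collagens, 8 basement membrane collagens and 25 other collagens. The basement membrane class held the chains of type IV collagen together with Col15a1 and Col18a1.

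RNA came from the myocardium of 16 mice on the C57Bl/6J background, with 4 mice in each of 4 groups and 1 Affymetrix array per mouse. Wild-type (WT) mice and mice labelled transgenic Clock delta 19/delta 19 (Clock mice) were fed standard chow (SC) or a high-fat diet (HFD). Every mouse was 32 weeks old, had been on its diet for 24 weeks and was sampled 7 h after lights on, so that a genotype difference at another hour was not measured. CLOCK drives the daily transcription cycle, the delta 19 allele makes a protein with a weakened ability to activate its target genes, and the labels restrict the allele to no cell type.

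The deposited values were logarithms, taken here as base 2, from which the median of each probe set over the 16 arrays had been subtracted. A value of 0 is therefore the middle of the 16 hearts, a positive value was taken to mean more transcript, and no signal level remains. For that reason no collagen can be called more abundant than another, and the labelled tissue could not be checked against the levels of its markers. Array medians ran from -0.0015 to 0.0028 and the SD of the values within an array from 0.111 to 0.159, with the widest in WT SC hearts 2 and 4.

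Collagens are secreted proteins built from 3 chains wound into a triple helix. Fibrillar collagens, led in the heart by types I and III, assemble into the tension-bearing fibres between muscle bundles, and are made mainly by fibroblasts. Type IV collagen instead forms the sheet-like network of basement membranes that surround cardiac muscle cells and underlie the endothelium, and endothelial and mural cells are among its sources. Other members tie cells or fibrils together, such as type VI, or belong to cartilage and epithelia.

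The type IV genes lie in head-to-head pairs. Col4a1 and Col4a2, whose chains join in 1 trimer, are neighbours on opposite strands of chromosome 8 and start from a shared promoter region. RefSeq promoter windows of GRCm38.p6, each of 300 bases from 250 before to 50 after a start, covered 35 of the 44 members in 38 windows, and the windows of Col4a1 and Col4a2 overlapped by 78 bases. The GC content was 74.0% in the Col4a1 window and 73.7% in that of Col4a2. Because this pair had the largest genotype differences on HFD, a CCAAT box from each window is shown 5′ to 3′ on the strand of its gene, with CCAAT or its reverse complement ATTGG in capitals, at chr8:11312956-11312982 (minus strand, motif at -145 from the Col4a1 start) and chr8:11312762-11312788 (plus strand, motif at -32 from the Col4a2 start):
Col4a1: gcttgcccgggATTGGcgagccaaggg
Col4a2: cgaggagctccCCAATttgttggcgct
Searched on both strands, CCAAT stood in 13 of the 38 collagen windows (34.2%) and in 37.4% of all 32851 promoter windows. The GC box GGGCGG stood in 60.5% of the collagen windows and 35.7% of all windows. The E-box CACGTG, the letters that CLOCK and its partner bind, stood in 0 of the 38 collagen windows and in 7.15% of all windows. These matches describe letters in these windows only, and Col1a1 had no window.

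Across the 16 hearts the collagens had a somewhat wider median spread than all genes. The median gap between the highest and the lowest heart was 0.43 (log2) for the 44 collagens and 0.38 for all genes. The classes were not alike. Below that all-gene median lay 4 of 11 fibrillar, 1 of 8 basement membrane and 12 of 25 other collagens, or 17 of the 44. The widest gap among collagens was that of Col4a1, at 1.06, and the narrowest that of Col5a1, at 0.16. The Col5a1 value averages probe sets that ran against each other (r = -0.54 over the 16 hearts). Taken singly, these probe sets had gaps of 0.32 and 0.41, so the 0.16 does not show that Col5a1 varied least.

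Col4a1 and Col4a2 were higher in Clock than in WT hearts on HFD, and they were the collagens past the threshold in that comparison. Col4a1 encodes the chain of type IV collagen present in nearly every basement membrane. In WT hearts 1 to 4 its log2 values were -0.03, -0.51, -0.14 and -0.13 on SC and -0.20, -0.19, -0.59 and -0.18 on HFD. In Clock hearts 1 to 4 they were 0.03, 0.05, 0.23 and 0.06 on SC and 0.30, 0.21, 0.33 and 0.47 on HFD. All 8 Clock hearts lay above all 8 WT hearts, and the 4 Clock HFD hearts were high even beside most Clock SC hearts. On HFD the group means were 0.33 ± 0.11 in Clock and -0.29 ± 0.20 in WT hearts (SD, n = 4 each). The difference was 0.62 ± 0.10 (standard error), a 1.53-fold difference with a 95% interval of 0.40 to 0.83 on the log2 scale (limma, Benjamini-Hochberg adjusted over all 22180 genes, adjusted p = 0.00446).

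Col4a2 encodes the partner chain. Its values in WT hearts 1 to 4 were 0.04, -0.36, -0.01 and -0.19 on SC and -0.10, -0.16, -0.40 and -0.09 on HFD. Those in Clock hearts 1 to 4 were 0.01, 0.12, 0.17 and -0.19 on SC and 0.24, 0.17, 0.28 and 0.37 on HFD. The genotypes overlapped on SC and were apart on HFD, where the lowest Clock heart stood above the highest WT heart. The HFD difference was 0.45 ± 0.10, or 1.37-fold (limma, adjusted p = 0.0198). The Col4a2 call did not hold without Clock HFD heart 3, Clock HFD heart 4 or WT HFD heart 3, where the adjusted p of limma became 0.0575, 0.0685 and 0.0668 at differences of 0.45, 0.41 and 0.38. Col4a1 stayed past the threshold without any 1 of the 8 HFD hearts, with adjusted p between 0.00807 and 0.0173.

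**Figure D1:**
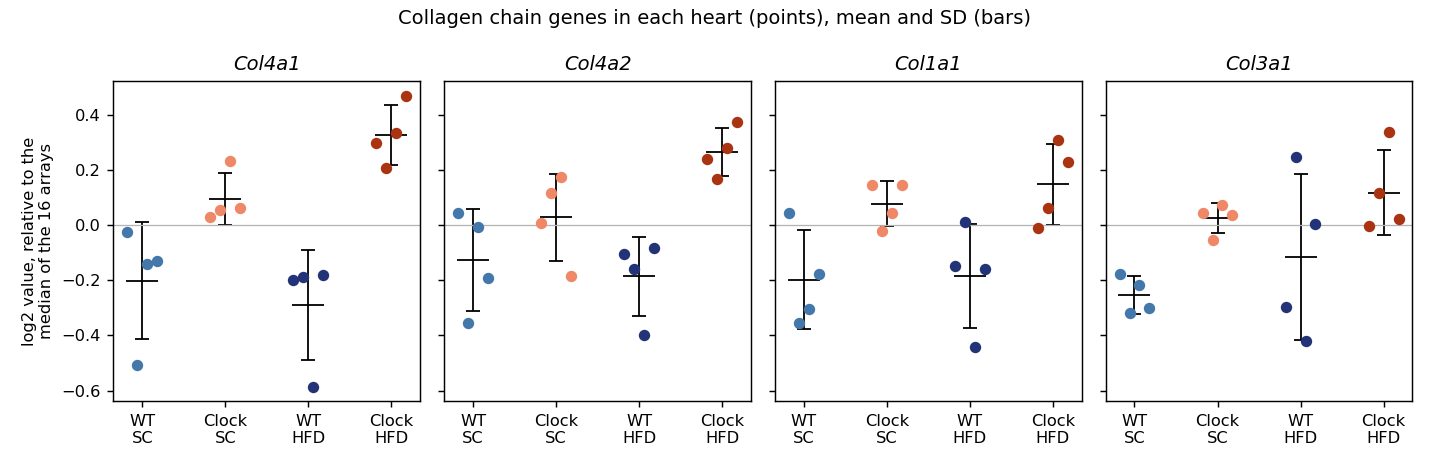
Log2 values of Col4a1, Col4a2, Col1a1 and Col3a1 in each heart, relative to the median of the 16 arrays, by genotype and diet, with the group mean and SD as bars (n = 4 per group). The 8 Clock hearts lie above the 8 WT hearts for Col4a1, while the genotypes overlap on at least 1 diet for the other 3 genes.

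These 2 collagens were 2 of 44 called higher on HFD, where 1.13% of all genes were called higher and 1.9% in either direction. The same 2 were also the members whose 4 Clock and 4 WT hearts did not overlap, with the Clock hearts higher, against 5.09% of all genes. On SC limma called 0 of the 44 collagens, and 0.491% of all genes, while 7 collagens (15.9%) and 9.77% of all genes had an unadjusted p under 0.05. The SC difference of Col4a1 was 0.30 ± 0.10 (limma, adjusted p = 0.294), and that of Col4a2 was 0.16 ± 0.10. The genotype difference was thus larger on HFD in value for both chains. The test of that difference itself, the interaction, gave 0.32 ± 0.15 for Col4a1 and 0.30 ± 0.13 for Col4a2 (limma, adjusted p = 0.98 for each). The interaction called 0 of 44 collagens and 0% of all genes, and 2 collagens, these 2, had an unadjusted p under 0.05. That is 4.55% of the collagens, beside 5.06% of all genes.

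Averaged over the diets, 3 collagens were higher in Clock hearts, Col4a1, Col4a2 and Col1a1, and none was lower. The averaged differences were 0.46 ± 0.07 for Col4a1, 0.30 ± 0.07 for Col4a2 and 0.30 ± 0.07 for Col1a1 (limma, adjusted p = 0.00157, 0.0161 and 0.021). The background was 2.44% of all genes called higher and 3.88% called in either direction. Col4a1 was the member whose 8 Clock and 8 WT hearts did not overlap. The Clock hearts lay wholly above the WT hearts for 0.419% of all genes. The 3 genes were called with each of the 16 hearts left out in turn. Leaving out 1 heart also brought others past the threshold: Col5a2 and Col28a1 without Clock HFD heart 1, Col4a5, Col6a3 and Col8a2 without Clock SC heart 4, Col3a1 and Col6a2 without WT HFD heart 2, Col5a2 without Clock SC heart 3, Col8a2 without WT SC heart 1, and Col6a2 without WT SC heart 3. With WT SC hearts 2 and 4, the arrays of widest spread, left out together, Col4a1 remained called, while Col4a2 had an adjusted p of 0.0908 and Col1a1 one of 0.103 in limma.

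The other 4 type IV chains passed the threshold in no comparison. Col4a5, an X-linked chain best known from the kidney, was -0.01, 0.07, -0.19 and -0.02 in WT and 0.04, 0.13, 0.31 and 0.21 in Clock hearts 1 to 4 on HFD. On SC it was 0.01, -0.24, -0.19 and -0.06 in WT and 0.10, 0.10, -0.01 and -0.17 in Clock hearts. The genotypes overlapped on both diets, and the averaged difference of 0.17 ± 0.06 did not pass (limma, adjusted p = 0.108). Col4a3 and Col4a4, its partner chains in the kidney filter, and Col4a6, a chain of smooth muscle, had averaged differences of -0.09 ± 0.05, 0.07 ± 0.06 and -0.05 ± 0.04, and none passed.

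Col15a1 and Col18a1 encode collagens with interrupted helices that attach basement membranes to the matrix outside them. Col15a1 was -0.25, -0.28, -0.06 and -0.13 in WT and 0.13, 0.15, 0.13 and -0.01 in Clock hearts 1 to 4 on SC. On HFD the values were 0.10, 0.17, -0.33 and -0.11 in WT and 0.01, 0.02, -0.01 and 0.06 in Clock hearts. The genotypes were apart on SC and overlapped on HFD, where the WT hearts spread on both sides of the Clock hearts. The SC difference was 0.28 ± 0.09 (limma, adjusted p = 0.211), the HFD difference 0.06 ± 0.09, and the interaction -0.22 ± 0.12 (limma, adjusted p = 0.982). Col18a1, the source of endostatin, differed by 0.03 ± 0.05 on average, with a 95% interval of -0.08 to 0.14. Over the 8 basement membrane collagens the median averaged difference was 0.12, with 6 of 8 above 0 and 2 called, beside a median of -0.0014 over all genes.

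Of the fibrillar collagens Col1a1 passed the threshold, in the average over diets. It encodes the more abundant chain of type I collagen, the main fibre of the heart. In WT hearts 1 to 4 Col1a1 was 0.04, -0.36, -0.31 and -0.18 on SC and -0.15, 0.01, -0.44 and -0.16 on HFD. In Clock hearts 1 to 4 it was 0.14, -0.02, 0.04 and 0.14 on SC and -0.01, 0.06, 0.31 and 0.23 on HFD. Most Clock hearts were higher, but the highest WT heart reached into the Clock range on both diets. The differences were 0.28 ± 0.10 on SC and 0.33 ± 0.10 on HFD (limma, adjusted p = 0.312 and 0.115), and their interaction was 0.06.

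Col1a2, the second chain of the type I trimer, had an averaged difference of 0.10 ± 0.06 (95% interval -0.02 to 0.23), and its 2 probe sets correlated at 0.29 over the 16 hearts. Col3a1, which forms the finer reticular fibres, was -0.18, -0.32, -0.22 and -0.30 in WT SC and 0.04, -0.05, 0.07 and 0.04 in Clock SC hearts 1 to 4. On HFD it was -0.30, 0.25, -0.42 and 0.0038 in WT and -0.0038, 0.12, 0.34 and 0.02 in Clock hearts. The 4 Clock hearts lay above the 4 WT hearts on SC, and the widely spread WT hearts overlapped them on HFD. The averaged difference of Col3a1 was 0.26 ± 0.08 and did not pass (limma, adjusted p = 0.0846). Without WT HFD heart 2, its highest WT heart, Col3a1 was called in the averaged comparison.

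Type V collagen lies inside fibrils and limits their width. Its chain gene Col5a2 had an averaged difference of 0.18 ± 0.05 (limma, adjusted p = 0.0653), and Col5a1 one of -0.01 ± 0.03, although the 2 Col5a1 probe sets ran against each other (r = -0.54 over 16 hearts). Col5a3 was 0.10, 0.16, -0.06 and 0.05 in WT SC, -0.12, -0.62, -0.21 and -0.02 in WT HFD, -0.11, -0.01, 0.04 and 0.24 in Clock SC and 0.01, 0.09, -0.04 and 0.09 in Clock HFD hearts 1 to 4. WT HFD heart 2 was far below all the others for this gene. The HFD genotype difference of Col5a3 was 0.28 ± 0.10 (limma, adjusted p = 0.219).

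The fibrillar collagens of cartilage and the minor ones, Col2a1, Col11a1, Col11a2, Col24a1 and Col27a1, had averaged differences between -0.11 and -0.002, and none passed. Col11a2 was among the flattest and had 0.04, 0.03, -0.08 and 0.01 in WT SC, 0.02, -0.07, 0.10 and 0.07 in Clock SC, 0.05, -0.02, -0.01 and -0.08 in WT HFD and -0.09, -0.02, 0.06 and -0.14 in Clock HFD hearts. Its 4 groups overlapped. The median averaged difference of the 11 fibrillar collagens was -0.0022, and the class was split. The values of Col1a1, Col1a2, Col3a1, Col5a2 and Col5a3 were positive, and those of Col5a1 and of the cartilage and minor chains were negative.

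**Figure D2:**
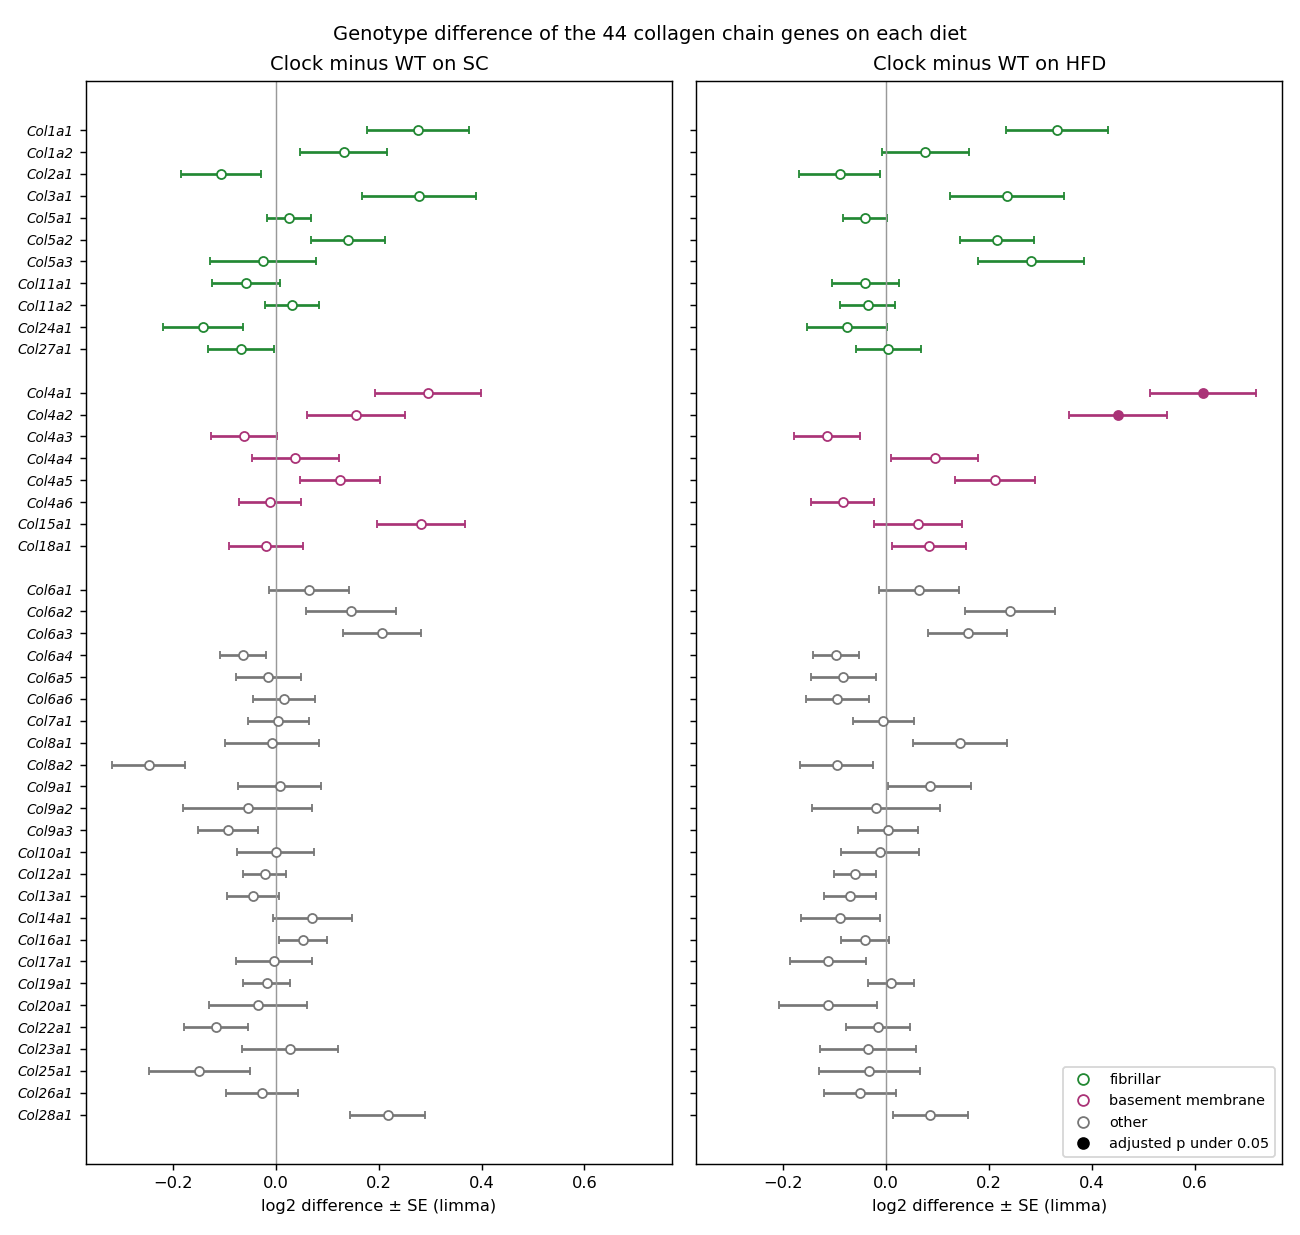
Clock minus WT difference (log2) of each of the 44 collagen chain genes on SC and on HFD, with the standard error of the limma fit, coloured by class. Filled points, Col4a1 at 0.62 and Col4a2 at 0.45 on HFD, had an adjusted p under 0.05, and no point on SC is filled.

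The 25 other collagens held 0 called genes in every comparison by limma, with 5 (20.0%) at an unadjusted p under 0.05 in the averaged genotype comparison, 3 higher and 2 lower, beside 16.5% of all genes. Their averaged differences ran from -0.17 for Col8a2 to 0.19 for Col6a2, with 7 of 25 above 0, a median of -0.04 and outermost 95% bounds of -0.28 and 0.32. Type VI collagen forms beaded filaments next to basement membranes. Col6a2 was -0.10, -0.35, 0.11 and -0.10 in WT SC, 0.07, -0.07, -0.0017 and 0.14 in Clock SC, -0.21, 0.04, -0.23 and -0.30 in WT HFD and 0.0017, 0.17, 0.09 and 0.0032 in Clock HFD hearts 1 to 4. The genotypes overlapped on both diets. Its averaged difference was 0.19 ± 0.06 and that of Col6a3 was 0.18 ± 0.05 (limma, adjusted p = 0.101 and 0.0738).

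The third classical chain of that collagen, Col6a1, had an averaged difference of 0.06 ± 0.05. Its 2 probe sets correlated at -0.065 over the 16 hearts and gave 0.21 and 0.17 for 1 probe set, and -0.08 and -0.04 for the other, on SC and HFD. The value for Col6a1 therefore rests on probe sets that differ in sign. The later members Col6a4, Col6a5 and Col6a6 had averaged differences of -0.08 ± 0.03, -0.05 ± 0.04 and -0.04 ± 0.04.

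Type VIII collagen forms short-chain networks in vessel walls and under endothelium. Col8a2 was the collagen with the smallest p on SC, at -0.01, 0.12, 0.05 and 0.35 in WT and -0.20, -0.15, -0.16 and 0.02 in Clock hearts 1 to 4. On HFD it was 0.06, -0.01, 0.0014 and 0.06 in WT and -0.0014, 0.02, -0.17 and -0.11 in Clock hearts. Clock SC heart 4 was the heart that overlapped the WT hearts on SC. The SC difference of Col8a2 was -0.25 ± 0.07 and the averaged one -0.17 ± 0.05 (limma, adjusted p = 0.174 and 0.0695). Without Clock SC heart 4 or without WT SC heart 1 the averaged difference passed, at -0.19 in each case (limma, adjusted p = 0.0337 and 0.0383).

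Its partner Col8a1 differed between the genotypes by 0.07 ± 0.06 on average. Col28a1, a collagen described mainly in nerve, was -0.19, -0.07, -0.24 and -0.21 in WT SC, 0.24, -0.03, -0.06 and 0.0012 in Clock SC, -0.0012, 0.03, 0.06 and 0.10 in WT HFD and -0.08, 0.18, 0.21 and 0.22 in Clock HFD hearts 1 to 4. All 4 WT SC hearts were below all hearts of the Clock SC group and of the WT HFD group. The Clock difference of Col28a1 on SC was 0.22 ± 0.07 (limma, adjusted p = 0.263). With Col3a1, Col4a1 and Col15a1 it was among 4 collagens whose Clock hearts lay wholly above WT hearts on SC, and for 2.58% of all genes the same was seen.

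The high-fat diet gave no called collagen. Limma called 0 of 44 in WT hearts and 0 of 44 in Clock hearts, where 0.352% and 0.0902% of all genes were called. An unadjusted p under 0.05 was seen for 2 collagens (4.55%) in WT and 5 (11.4%) in Clock hearts, beside 10.7% and 8.42% of all genes. In the diet difference averaged over genotypes limma called 0 of 44 and 1.54% of all genes, with 5 collagens (11.4%) and 13.2% of all genes at an unadjusted p under 0.05. The 95% intervals of the averaged diet differences of all 44 genes lay between -0.31 and 0.37. Within 1 genotype the intervals were wider, from -0.53 to 0.38 in WT and from -0.35 to 0.50 in Clock hearts.

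The largest averaged diet difference was that of Col8a1. It was 0.03, -0.02, -0.18 and -0.20 in WT SC, -0.0031, 0.27, -0.01 and -0.02 in WT HFD, -0.04, 0.0031, 0.02 and -0.40 in Clock SC and 0.15, 0.17, 0.17 and 0.33 in Clock HFD hearts 1 to 4. All Clock HFD hearts were above all Clock SC hearts, while the WT groups overlapped. The Col8a1 diet difference was 0.31 ± 0.09 in Clock and 0.23 ± 0.06 on average (limma, adjusted p = 0.293 and 0.0922). Col8a1 was the 1 collagen higher without overlap on HFD in Clock hearts and Col13a1, a transmembrane collagen, the 1 lower, beside 5.31% of all genes.

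In WT hearts Col28a1 was higher on HFD without overlap by 0.22 ± 0.07, and Col6a6, Col9a3 and Col22a1 were lower without overlap, beside 5.3% of all genes. None of the 4 passed (limma, adjusted p = 0.223 for Col28a1). Col5a3 had the most negative diet difference in WT hearts, at -0.31 ± 0.10 (limma, adjusted p = 0.237), in which WT HFD heart 2 is the extreme value. Col4a1 and Col4a2 differed between the diets by 0.23 ± 0.10 and 0.24 ± 0.10 in Clock hearts and by -0.09 ± 0.10 and -0.06 ± 0.10 in WT hearts, and none of these 4 values passed.

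Chains that share a trimer or fibre were also compared within groups, by correlating each heart's deviation from its group mean for 8 pairs chosen by known partnership, over 16 hearts with permutation p-values adjusted over the 8 pairs. Col4a1 and Col4a2 varied together, with Pearson's r = 0.84 (adjusted p = 0.00448) and Spearman's rho = 0.81 (adjusted p = 0.00648). Without the 2 hearts farthest from the middle for Col4a1, WT SC heart 2 and WT HFD heart 3, r was 0.66 (permutation p = 0.0437, adjusted p = 0.219), which did not pass after adjustment. Both hearts were low for both chains.

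Col1a1 and Col3a1 gave r = 0.69 (permutation, adjusted p = 0.0365) with rho = 0.58 (adjusted p = 0.0777), and r = 0.57 without the 2 hearts farthest out (adjusted p = 0.219). Col1a1 and Col1a2 gave r = 0.64 (permutation, adjusted p = 0.0514). These main fibre chains had positive values throughout, and the hearts left out for Col1a1 and Col3a1 were WT SC heart 1 and WT HFD heart 3. Col8a1 and Col8a2, partners in type VIII networks, ran the other way, with r = -0.61 (permutation, adjusted p = 0.0433) and rho = -0.56 (adjusted p = 0.0777). Without Clock SC heart 4 and WT HFD heart 2 that correlation was -0.53 (permutation, adjusted p = 0.382). Of the other 4 pairs, Col3a1 with Col5a2, Col5a1 with Col5a2, Col4a3 with Col4a4 and Col6a1 with Col6a2, none passed, with r between -0.22 and 0.29.

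**Figure D3:**
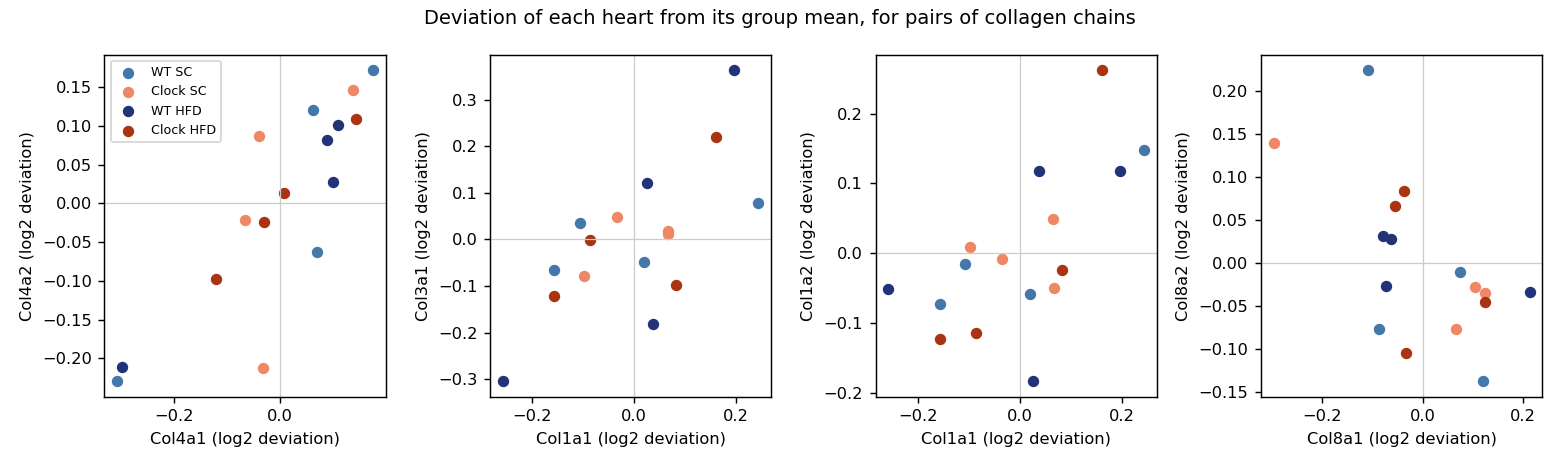
Deviation of each of the 16 hearts from its group mean (log2) for 4 pairs of collagen chains. Points for Col4a1 and Col4a2 rise together (r = 0.84), with 2 WT hearts at the lower left, and points for Col8a1 and Col8a2 slope downward (r = -0.61).

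The genes that make, process, bind and remove collagen were counted in lists chosen with earlier results of these data known, in the averaged genotype comparison, where 2.44% of all genes were called higher. Of 21 folding and modification genes 1 was called higher, Serpinh1, the chaperone of the collagen triple helix, by 0.28 ± 0.06 (limma, adjusted p = 0.00865). The median of this list, which holds the prolyl and lysyl hydroxylases, was 0.0012, with 11 of 21 above 0, beside -0.0014 over all genes. In either direction 9 of the 21 had an unadjusted p under 0.05 in limma, beside 16.5% of all genes. Of 21 processing and crosslinking genes 7 were called higher and none lower, with a median of 0.09. They were led by Fn1, the fibronectin on which collagen fibrils are laid down, at 0.45 ± 0.06, and Loxl1, a crosslinking enzyme, at 0.34 ± 0.06 (limma, adjusted p = 0.000312 and 0.00508). Sparc, a collagen-binding protein, was higher by 0.30 and Postn by 0.28.

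Of 18 breakdown genes, with a median of 0.03, 4 were called higher, the collagen-degrading enzymes Mmp9 at 0.61 ± 0.07, Mmp2 at 0.50 ± 0.07 and Mmp14 at 0.32 ± 0.05 and the inhibitor Timp2 at 0.31 ± 0.05 (limma, adjusted p from 0.000163 to 0.00232). Mmp14 also differed by diet: it was lower on HFD in WT hearts by 0.45 ± 0.08 and in the diet average by 0.24 ± 0.05 (limma, adjusted p = 0.0167 and 0.037), and its genotype difference on HFD was 0.54 ± 0.08. Of 14 collagen receptors, with a median of -0.0048, 1 was higher, Ddr2, the receptor for fibrillar collagen on fibroblasts, by 0.35 ± 0.07 (limma, adjusted p = 0.0082). Of 24 non-collagen basement membrane genes, with a median of 0.04, 5 were higher and none lower, among them Lama5, a laminin chain, by 0.42 ± 0.07 and Nid1, which links laminin to type IV collagen, by 0.34 ± 0.05 (limma, adjusted p = 0.00123 and 0.000831). Sparc is among these 5 and was also counted with the processing genes above. Of 19 TGF-beta ligands and readout genes, with a median of 0.05, Tgfb3 was called higher, by 0.22 ± 0.04. On diet, Tgfb1 was lower on HFD in WT by 0.30 ± 0.05 and in Clock hearts by 0.36 ± 0.05 (limma, adjusted p = 0.0156 and 0.00666), with no called collagen beside it.

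Markers of 2 cell types that make collagen were counted in the same way. Of 14 endothelial markers, 14 were above 0, with a median of 0.19, and 7 were called higher in the averaged comparison. On HFD 4 were called higher, beside 1.13% of all genes, led by Cldn5, a tight junction protein, at 1.21 ± 0.17 (limma, adjusted p = 0.00089). The mean of the endothelial markers ran from -0.08 to 0.06 in WT SC, 0.02 to 0.17 in Clock SC, -0.23 to -0.18 in WT HFD and -0.02 to 0.16 in Clock HFD hearts. The HFD genotypes were apart for this mean, with the WT HFD hearts the lowest of all. The diet differences of these markers are given next beside those of Col4a1 and Col4a2, which did not pass in either genotype. In WT hearts 0 of 14 markers were above 0 for HFD minus SC, with a median of -0.10. Cldn5 was called lower by 0.81 ± 0.17 (limma, adjusted p = 0.0482), where 0.352% of all genes were called in either direction. Col4a1 and Col4a2 were at -0.09 and -0.06, as given above. In Clock hearts the median of the markers was -0.04 with 6 of 14 above 0, where Col4a1 and Col4a2 were at 0.23 and 0.24. Averaged over genotypes Egfl7, Emcn and Kdr were called lower on HFD, where 1.54% of all genes were called in either direction. Of 14 fibroblast markers 12 were above 0, with a median of 0.14, and 4 were called higher, Gsn, Lum, Mfap4 and Mmp2, of which Lum and Mmp2 also stand in the lists above. The fibroblast mean ran from -0.21 to -0.04 in WT SC, -0.0012 to 0.11 in Clock SC, -0.10 to 0.06 in WT HFD and -0.08 to 0.17 in Clock HFD hearts, apart on SC and overlapping on HFD.

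Of 12 mural markers limma called none higher, with 7 of 12 above 0 and a median of 0.10. Abcc9, a potassium channel subunit, was lower by 0.34 ± 0.05 (limma, adjusted p = 0.000377). In either direction 7 of the 12 mural markers, Abcc9 among them, had an unadjusted p under 0.05 in limma, beside 16.5% of all genes. The mural mean was 0.0032 in WT SC, 0.012 in Clock SC, -0.027 in WT HFD and -0.020 in Clock HFD hearts. Of 12 macrophage markers limma called 0, with 0 at an unadjusted p under 0.05 and 5 of 12 above 0. Of 11 activated fibroblast markers Postn, also in the processing list above, was the called one in the averaged comparison. There 4 of 11 were above 0 and the median was -0.02. On HFD Cilp was the called one, higher in Clock hearts by 0.46 ± 0.11 (limma, adjusted p = 0.0393), beside 1.13% of all genes. Centred values do not show which markers are near background. The part of these markers in the collagen differences was not tested, and since whole myocardium was measured, fewer cells of a type and less RNA per cell cannot be told apart.

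**Figure D4:**
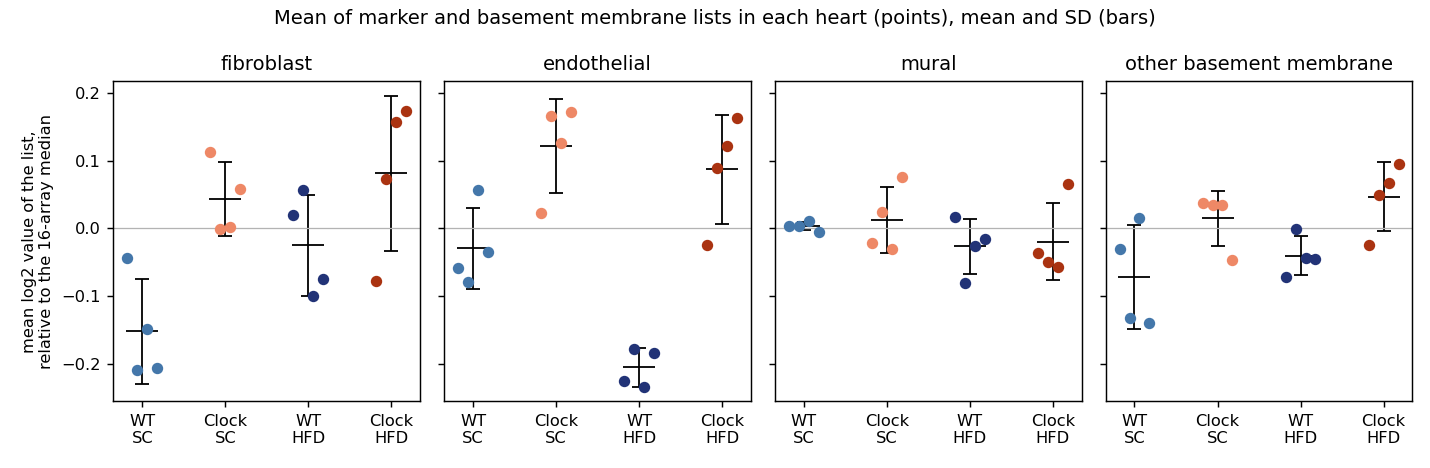
Mean log2 value of the fibroblast markers, endothelial markers, mural markers and non-collagen basement membrane genes in each heart, relative to the median of the 16 arrays, with group mean and SD as bars (n = 4 per group). For the endothelial markers the 4 WT HFD hearts lie between -0.23 and -0.18, below every other heart.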

How the data were processed

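Per the labels' protocols, 500 ng of total RNA per heart was biotin-labelled for Affymetrix arrays. The deposited table holds log2 values by the authors, centred on each probe set's median over 16 arrays. The base and sign were taken as 2 and positive for higher expression; the upstream software and normalization are unknown here. Probe sets with 1 symbol (23521 of 34351) were averaged per gene; 47 of them measured the 44 collagens, 3 of which have 2 probe sets. Col21a1 was not analysed here. limma 3.58.1 in R 4.3.3 fitted 1 mean per group with 12 residual and 4.16 prior degrees of freedom, and 7 contrasts were tested two-sided with Benjamini-Hochberg adjustment over 22180 genes at 0.05. An error after ± is the standard error unless called SD. Partner chains were tested two-sided with 100000 permutations within groups. The number of arrays limits precision.

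Any collagen may be named, and values in every heart are given for collagens past the threshold and for those with the smallest p in each comparison and class. Col3a1 was added to these after its values were seen. Of the list genes past the threshold, up to 4 per list are named. The members, classes and lists were chosen with earlier results of these data known. Lists of cardiomyocyte, atrial, adipocyte, Schwann, epicardial, cartilage or valve and red cell markers were also counted. Alternatives were the highest-mean probe set, all probe sets, quantile normalization, trend and robust eBayes, array weights, the replicate number as a block, each heart left out and a fit of the compared groups alone. The fit was tested on simulated data.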

Additional observations from a re-analysis of the deposited data

Results flagged for a closer look

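Among 44 groups of 4 hearts checked, for 11 collagens, 7 held a heart whose gap to the nearest other exceeded the critical share of the group's range in Dixon's test for 4 values. Chance gives such a heart in about 1 of 20 groups. For Col4a1 these were Clock SC heart 3, at 0.23 where the others had 0.03 to 0.06, and WT HFD heart 3, at -0.59 where the others had -0.20 to -0.18. Both lie on the side away from the other genotype, and the HFD call of Col4a1 held without WT HFD heart 3. For Col8a1 they were Clock SC heart 4, at -0.40 where the others had -0.04 to 0.02, WT HFD heart 2, at 0.27 where the others had -0.02 to -0.0031, and Clock HFD heart 4, at 0.33 where the others had 0.15 to 0.17. Col15a1 was -0.00601 in Clock SC heart 4 and 0.13 to 0.15 in the others. Col28a1 was -0.082 in Clock HFD heart 1 and 0.18 to 0.22 in the others.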

How the results depend on the processing

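The number of collagens called, 0 in 5 of the 7 comparisons by limma, stayed 0 there under every alternative run. For Clock against WT on HFD the count lay between 1 and 2 as hearts were left out in turn, and for the averaged genotype difference between 3 and 6, with 6 without Clock SC heart 4 and 5 without Clock HFD heart 1 or WT HFD heart 2. It was 1 with WT SC hearts 1 and 3 as the only ones of their group, a setting chosen after seeing the data. The averaged calls of Col1a1, Col4a1 and Col4a2 held in the other alternatives. The correlation of Col1a1 with Col1a2 rose to 0.77 with the highest-mean probe set (permutation, adjusted p = 0.009), and that of Col5a1 with Col5a2 turned from 0.20 to -0.34. Without the 2 hearts farthest out, r was 0.66 for Col4a1 with Col4a2, 0.57 for Col1a1 with Col3a1 and -0.53 for Col8a1 with Col8a2, and none passed after adjustment; the cause was not tested. With the replicate block the counts were 0 on SC, 2 on HFD and 3 on average, as without it. Of 24 pairs of hearts with the same replicate number, 3 had deviations correlated over 0.1, so the number was not taken as a pairing. No filter on low values could be set on centred values.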

Other observations

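In the averaged genotype comparison 3.88% of all genes were called, 2.44% higher. Among the other cell type lists it called 1 of 12 cardiomyocyte markers, Ryr2, the calcium release channel, higher by 0.17 ± 0.03, 1 of 7 measured adipocyte markers, Pparg, higher by 0.19 ± 0.05, and 1 of 5 measured Schwann cell markers, Cdh19, lower by 0.28 ± 0.07 (limma, adjusted p = 0.00698, 0.0452 and 0.0488). Of 8 cartilage or valve markers Prg4, the lubricating proteoglycan of joints, was lower by 0.88 ± 0.10 (limma, adjusted p = 9.12e-05), while the cartilage collagens Col2a1, Col9a1, Col9a2, Col9a3, Col10a1, Col11a1 and Col11a2 did not pass. Limma called 0 of 8 atrial and 0 of 8 epicardial or mesothelial markers. An unadjusted p under 0.05 was seen for 2 and 1 of them, beside 16.5% of all genes. The mean of the atrial markers ran from 0.09 to 0.15 in WT SC and -0.13 to 0.06 in Clock SC hearts, which were apart. On HFD it ran from -0.07 to 0.10 in WT and -0.08 to -0.04 in Clock hearts, which overlapped. Whether the hearts differed in atrial tissue was not tested. Of 7 red cell markers 1 was measured, at -0.08, and did not pass.

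On HFD the genotype comparison called Thbs1, thrombospondin, which activates TGF-beta, higher in Clock hearts by 1.16 ± 0.27, and Adgrg1, a receptor for type III collagen, by 0.42 ± 0.09 (limma, adjusted p = 0.0386 and 0.0288). Averaged over genotypes, the diet comparison called Postn, periostin, higher on HFD by 0.34 ± 0.07, Crtap, a partner of the collagen prolyl hydroxylase, lower by 0.27 ± 0.06, and Cd44 lower by 0.20 ± 0.04 (limma, adjusted p = 0.0227, 0.0341 and 0.0134).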
